A study of Sus scrofa with 6 samples.

Results

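CADPS and CADPS2 are the paralogous genes of the calcium-dependent activator proteins for secretion, and they were described here through their gene level and through the circular RNAs (circRNAs) formed inside them. They were taken with every circRNA that lay inside their bounds in the RefSeq annotation of Sscrofa11.1. This gave 39 of the 11375 circRNAs of the series, 29 in CADPS2 and 10 in CADPS. In the table of 21280 protein-coding genes, 1 gene of the pair was found by its symbol, CADPS2 (ENSSSCG00000016611). None of the identifiers was paired with the symbol CADPS, so the CADPS gene level is not analysed here. The pair had been chosen by measured values of these libraries, the number of circRNAs in CADPS2. That number is therefore a description, as is its rank: 9 of 3483 host genes had 29 or more circRNAs, 203 had 10 or more, and the median host had 2.

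The samples were RNA-seq libraries of 3 wild boars and of 3 domestic pigs of the Rongchang breed from China. The labels give female sex and an age of 2 years for all 6. Brain is the tissue label in wild boars and cerebrum in domestic pigs, whose libraries are marked as re-analysed from an earlier deposit. The title of the series speaks of prefrontal cortex. Breed, source of the libraries and tissue label split them the same way and cannot be told apart. Animals were numbered within each group with no further statement on sampling, so p-values measure only the spread between these samples.

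CAPS proteins prime dense-core vesicles, the organelles that store neuropeptides, neurotrophins and monoamines, so that calcium can trigger their fusion with the plasma membrane. They share a Munc13-homology region with the UNC13 priming proteins and bind the membrane lipid PIP2 and the fusion protein syntaxin. In mouse, CADPS is expressed widely in neurons and neuroendocrine cells, while CADPS2 is high in cerebellar granule cells and promotes release of the neurotrophins BDNF and NT-3. A circRNA is a covalently closed loop. It forms by back-splicing, in which the 3' end of an exon is joined to the 5' end of the same or an earlier exon, and a read across that junction counts it.

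Both hosts are long genes. CADPS2 spans chr18:24372547-24867287 (494.7 kb) and CADPS spans chr13:43979694-44482985 (503.3 kb). All CADPS2 circRNAs were on the plus strand and all CADPS circRNAs on the minus strand. RNF148 and RNF133, a pair of ubiquitin ligase genes, lie inside CADPS2, within the span of 4 of its circRNAs that start at 24496802. Hosts were taken from position, and a split of reads between the paralogs was not tested.

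Between 33644 and 73089 back-splice reads per library were recovered from the deposited circRNA TPM, and a circRNA of the series had a median of 11 reads over the 6 libraries. CADPS2 circRNAs had 75, 126 and 44 back-splice reads in wild boars 1 to 3, against 133, 76 and 179 in domestic pigs 1 to 3. CADPS circRNAs had 30, 52 and 32 reads in wild boars, against 73, 41 and 80 in domestic pigs. The pair was thus read at low depth, with 633 and 308 reads in all. A count of 0 allows up to 3 reads in a library, which is between 0.00410% and 0.00892% of its back-splice reads, for counting error only.

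All 5 neuronal and all 5 glutamatergic cortical markers were at 1 TPM or more in every library. In contrast, GABRA6, CBLN3, EN2 and PCP2 of the 7 cerebellar markers were below 1 TPM throughout, and the cerebellar sum lay between 4.15 and 11.7 TPM. Of the 4 pituitary and chromaffin markers found, DBH, PNMT and PRL were below 1 TPM throughout. Red blood cell markers summed to 596, 760 and 522 TPM in wild boars, against 141, 123 and 312 TPM in domestic pigs. The striatal markers summed to 9.97, 6.80 and 9.61 TPM in wild boars, against 8.18, 12.5 and 56.8 TPM in domestic pigs, so domestic pig 3 stood apart. TTR, the 1 choroid plexus marker found, had 1.75, 0.745 and 31.8 TPM in wild boars, against 27.0, 5.39 and 0.558 TPM in domestic pigs. On this marker wild boar 3 and domestic pig 1 stood apart. In bulk tissue, fewer cells of a type and less RNA per cell cannot be told apart.

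The circRNAs occupied part of each gene. In CADPS2 they lay between 124 kb and 467 kb from the low-coordinate edge, and in CADPS between 40.3 kb and 165 kb. In CADPS2 they formed a pair of blocks, a division made after the positions were seen. The first block held 11 circRNAs and 278 reads (chr18:24496802-24675875), and the second held 18 circRNAs and 355 reads (chr18:24675809-24839633). The blocks overlapped in 67 bases, chr18:24675809-24675875, which were the last bases of 2 circRNAs of the first block and the first bases of 4 circRNAs of the second. The recovered lengths of circRNAs on both sides differed by the same 67 nucleotides, as a single exon there would give.

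**Figure D1:**
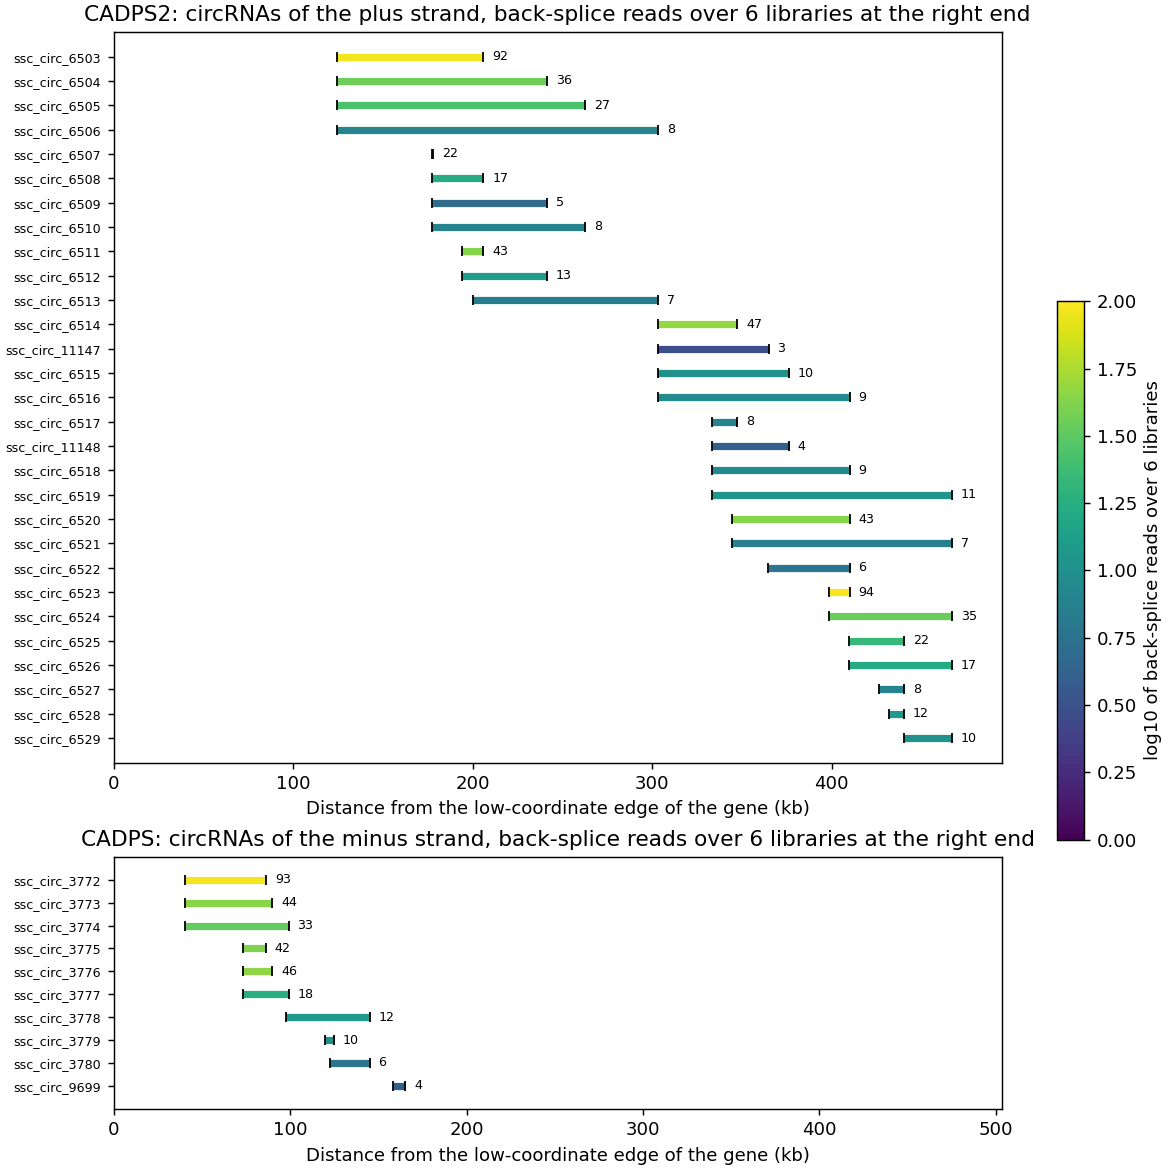
Positions of the 29 CADPS2 and 10 CADPS circRNAs as distance in kb from the low-coordinate edge of each gene (x axis), 1 row per circRNA. Colour gives log10 of the back-splice reads over 6 libraries, and the number at the right end of each bar gives the reads. The same start and end positions recur, and ssc_circ_6523 (94 reads), ssc_circ_3772 (93) and ssc_circ_6503 (92) had the most reads.

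The same splice ends were used again and again. In CADPS2, 8 of 13 low ends and 9 of 11 high ends served more than 1 circRNA, and 22 of 29 circRNAs had both ends in common with others. In CADPS, 2 of 6 low ends and 4 of 6 high ends were shared, and 6 of 10 circRNAs had both ends in common with others. The position 24782593 closed 5 CADPS2 circRNAs with 161 reads, and 24496802 opened 4 with 163 reads. The members are thus not independent of each other, as circRNAs with a common end draw on the same exons.

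In CADPS the 6 circRNAs of the block chr13:44019972-44078921 were every combination of 2 low ends with 3 high ends. They held 276 of the 308 CADPS reads. ssc_circ_3772, ssc_circ_3773 and ssc_circ_3774 shared the low end 44019972 and were 604, 751 and 1050 nucleotides long. ssc_circ_3775, ssc_circ_3776 and ssc_circ_3777 shared the low end 44052898 and were 463, 610 and 909 nucleotides long. Moving the low end added 141 nucleotides in each of the 3 pairs. Moving the high end added 147 and then 299 nucleotides in both sets.

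CADPS2 circRNAs were longer and more varied. Their recovered spliced length ran from 261 to 1947 nucleotides with a median of 876, while that of CADPS circRNAs ran from 322 to 1050 with a median of 612.5 and that of all circRNAs had a median of 539. The genomic span had a median of 61.7 kb in CADPS2, 24.3 kb in CADPS and 14.2 kb over all circRNAs. The shortest span belonged to ssc_circ_6507, which covered chr18:24550155-24550487. Its recovered length of 333 nucleotides equalled its genomic span, as for a circle of 1 exon. ssc_circ_6508 starts at the same base as ssc_circ_6507, ssc_circ_6511 starts beyond the end of ssc_circ_6507, and these 2 share a high end. ssc_circ_6508 and ssc_circ_6511 differed by the same 333 nucleotides. The recovered length was a multiple of 3 in 13 of 29 CADPS2 circRNAs (44.8%) and 3 of 10 CADPS circRNAs, against 37.6% of all circRNAs.

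The CADPS2 gene level was 32.8, 17.6 and 26.3 TPM in wild boars 1 to 3, against 38.4, 53.4 and 64.5 TPM in domestic pigs 1 to 3. It averaged 25.6 ± 7.65 TPM in wild boars and 52.1 ± 13.1 TPM in domestic pigs (SD, n = 3 each), and the groups did not overlap. The difference on log2(TPM + 1) was -1.01 (SE 0.42) and missed the threshold of 0.05 (limma, adjusted p = 0.205 over 11752 genes). Of all tested genes, 1.60% were called on this scale, and 17.1% did not overlap with wild boar lower.

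The deposited gene TPM covered only part of each library's scale, with protein-coding genes summing to 23.2%, 17.2% and 31.0% of the full TPM total in wild boars and 23.5%, 35.6% and 40.9% in domestic pigs. Wild boar 2, the library with the lowest CADPS2 level, had the lowest of these sums, and domestic pig 3 the highest of both. The median of all tested genes was -0.41 on the log2 scale. After median-ratio rescaling between libraries it was 0.01, and CADPS2 was 37.2, 30.5 and 22.6 TPM in wild boars, against 43.8, 37.1 and 47.0 TPM in domestic pigs. Wild boar 1 then just passed domestic pig 2, so the groups met. The rescaled difference was -0.51 (SE 0.18, limma adjusted p = 0.0786), which also missed the threshold, while 19.5% of all tested genes were called on the rescaled values.

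**Figure D2:**
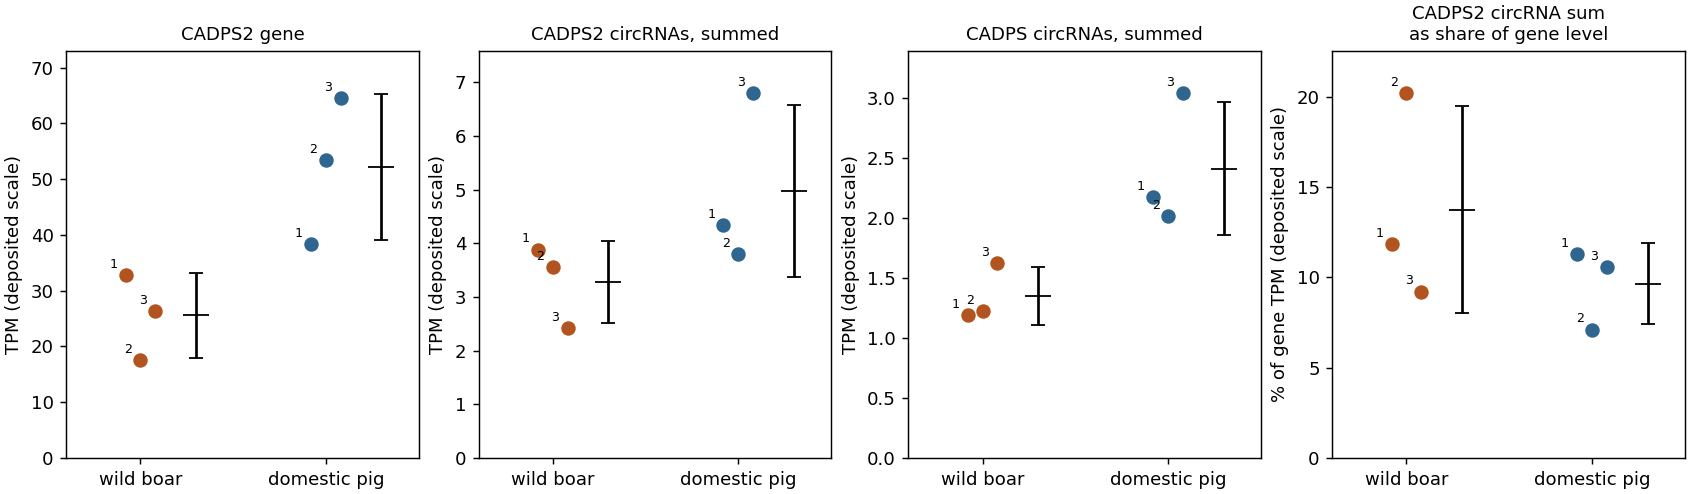
CADPS2 gene level, summed CADPS2 and CADPS circRNA levels (TPM, deposited scale) and the CADPS2 circRNA sum as a percentage of gene TPM, wild boar at the left and domestic pig at the right of each panel. Points are the 3 libraries per group with their replicate number, and bars give the mean and SD. The gene level and the CADPS sum do not overlap between groups, while the CADPS2 sum and the percentage do.

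Summed over its circRNAs, CADPS2 had 3.88, 3.55 and 2.42 TPM of circRNA in wild boars, against 4.34, 3.79 and 6.80 TPM in domestic pigs. The means were 3.29 ± 0.765 TPM in wild boars and 4.98 ± 1.60 TPM in domestic pigs (SD, n = 3 each). The highest wild boar was above the lowest domestic pig. The log2 difference was -0.57 (SE 0.27, limma adjusted p = 0.217 over 3193 hosts), while the median host stood at -0.52 and 4.73% of hosts were called. After rescaling the sign turned, with a difference of 0.02 (SE 0.26, adjusted p = 0.980) and the median host at -0.05.

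The CADPS circRNA sum was 1.19, 1.22 and 1.62 TPM in wild boars, against 2.17, 2.02 and 3.04 TPM in domestic pigs. It averaged 1.35 ± 0.241 TPM in wild boars and 2.41 ± 0.553 TPM in domestic pigs (SD, n = 3 each), with no overlap. Of all host sums, 24.9% did not overlap with wild boar lower. The log2 difference of -0.81 (SE 0.29) missed the threshold (limma, adjusted p = 0.103), and rescaling brought it to -0.22 (SE 0.26, adjusted p = 0.812).

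Per 1000000 back-splice reads of the library, CADPS2 had 1971, 2123 and 1308 reads in wild boars, against 1868, 1557 and 2449 reads in domestic pigs. CADPS had 788, 876 and 951 reads in wild boars, against 1026, 840 and 1095 reads in domestic pigs. Both pairs of groups overlapped on this scale. On average CADPS2 had 4.13 TPM of circRNA (rank 101 of 3483 hosts) and CADPS had 1.88 TPM (rank 293), where the median host had 0.250 TPM.

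The ratio of circRNA to gene level was computed for CADPS2. Its circRNA sum was 11.8%, 20.2% and 9.21% of its gene TPM in wild boars, against 11.3%, 7.10% and 10.5% in domestic pigs. Wild boar 2, with the lowest gene level, had the highest percentage, and the other 5 libraries lay between 7.10% and 11.8%. The log2 ratio differed by 0.44 (SE 0.48, limma adjusted p = 0.971 over 2791 hosts, 0.0358% called). The mean over all libraries, 11.7%, ranked 542 of 2791 hosts with a median of 3.37%. The circRNA TPM counts back-splice reads alone, and how its scale relates to that of the gene TPM is not given. This percentage therefore orders genes and is not taken as a share of molecules.

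The ratio of the CADPS2 to the CADPS circRNA sum, which no scaling between libraries changes, was 3.26, 2.90 and 1.49 in wild boars, against 2.00, 1.88 and 2.23 in domestic pigs. CADPS2 was above CADPS in every library, and the wild boars spread around the domestic pigs. An exact two-sided permutation test on the log2 ratio gave p = 0.5 (0.7 adjusted over 5 within-locus comparisons), with 0.1 the smallest p that 3 against 3 allows.

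Of the 39 circRNAs, 35 were above 0 in at least 3 libraries and were tested, 27 in CADPS2 and 8 in CADPS. None passed the threshold on deposited or rescaled TPM (limma), where 0.134% and 0.0206% of all 9709 tested circRNAs did. At an unadjusted p under 0.05 there were 2 of 35, both in CADPS2, against 14.5% of all. Of these, ssc_circ_6506 passed the filter through the domestic pigs alone. The log2 difference was below 0 for 23 of 27 CADPS2 circRNAs and 8 of 8 CADPS circRNAs, against 74.3% of all. Their medians were -0.69 and -0.58, against -0.45 over all tested circRNAs. After rescaling the medians were -0.30 for CADPS2 and -0.10 for CADPS, against -0.10 over all.

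In 7 of the 35 the wild boar values all lay below the domestic pig values, 5 in CADPS2 and 2 in CADPS, while 18.2% of all tested circRNAs did so. In 0 of the 35 they all lay above, against 2.46% of all. The share of members with separate groups was thus near the background. It counts ssc_circ_6506 of CADPS2, which passed the filter through the domestic pigs alone.

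The 4 untested circRNAs had 3 to 6 reads each. ssc_circ_11147 and ssc_circ_11148 of CADPS2 were read in wild boar 1 alone, ssc_circ_3780 of CADPS in domestic pigs 1 and 3, and ssc_circ_9699 of CADPS in wild boar 2 and domestic pig 2. ssc_circ_6506 of CADPS2 (chr18:24496802-24675875, 1206 nucleotides) had 0, 0 and 0 reads in wild boars, against 1, 2 and 5 reads in domestic pigs. It passed the filter through the domestic pigs alone, so its difference was fixed by the filter. Its bound of -0.86 also lies below the CADPS2 median of -0.69, so setting it there could not move that median.

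**Figure D3:**
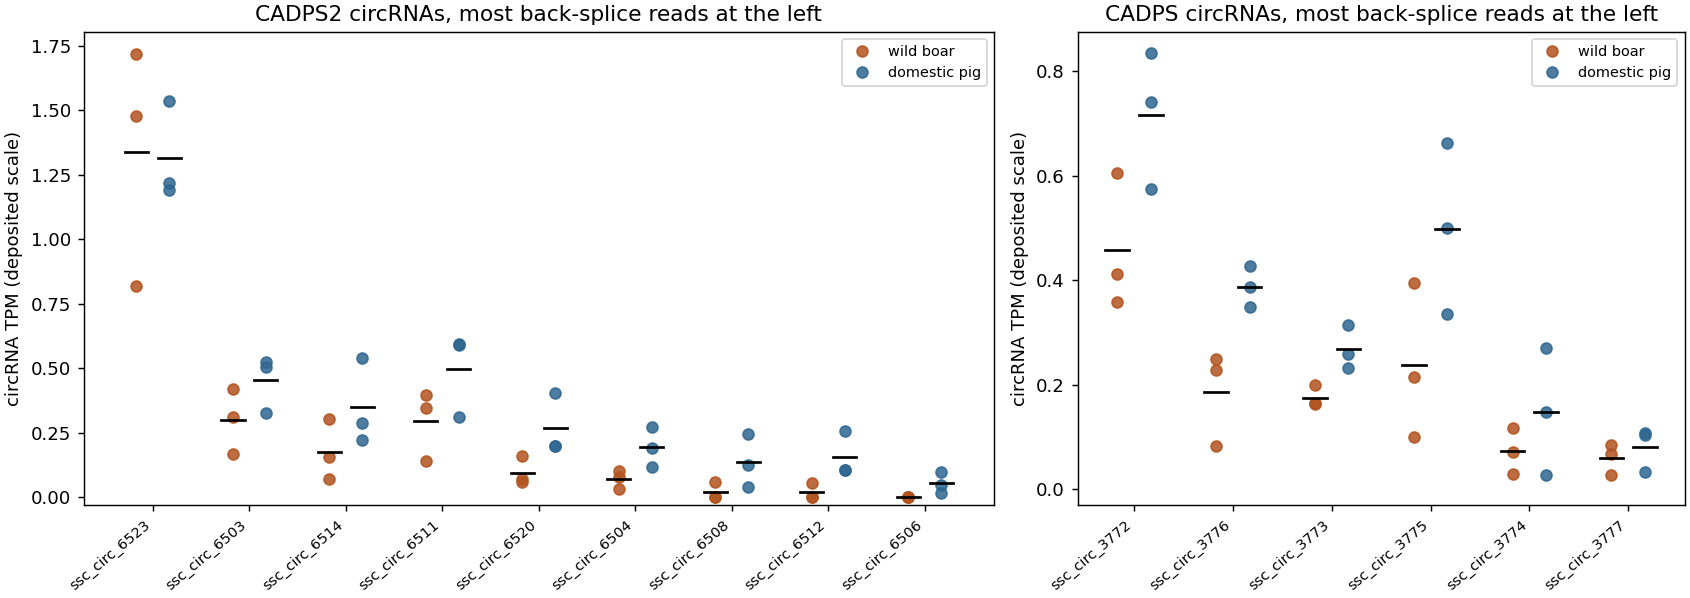
Deposited circRNA TPM of the named CADPS2 (left panel) and CADPS (right panel) circRNAs, wild boar at the left of each pair and domestic pig at the right. Points are the 3 libraries per group and lines are means. In TPM, which divides reads by length, ssc_circ_6523 stands above the other CADPS2 circRNAs in every library, between 0.818 and 1.72 TPM. By reads it does not in every library.

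The most read CADPS2 circRNA was ssc_circ_6523 (chr18:24770999-24782593), 261 nucleotides long. Its length equalled the sum of a 104 and a 157 nucleotide step that other CADPS2 circRNAs gave. It had 1.72, 1.48 and 0.818 TPM in wild boars, from 18, 25 and 7 reads, against 1.19, 1.22 and 1.54 TPM in domestic pigs, from 16, 11 and 17 reads. The groups overlapped fully. Its log2 difference was -0.03 (SE 0.36, limma adjusted p = 0.982), and 0.55 after rescaling (adjusted p = 0.712). TPM divides reads by length, so at equal reads a shorter circRNA has the higher TPM, also within the sums. ssc_circ_6503, of 887 nucleotides, had more reads than ssc_circ_6523 in wild boar 3, with 9 against 7. It also had more in domestic pig 1 (24 against 16) and domestic pig 3 (19 against 17), and fewer in the other libraries.

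Per read of the locus, ssc_circ_6523 gave 24.0%, 19.8% and 15.9% of CADPS2 reads in wild boars, against 12.0%, 14.5% and 9.50% in domestic pigs. The groups did not overlap, but the exact 95% intervals (Clopper-Pearson, counting error only) did: 6.64% to 30.1% in wild boar 3, against 7.45% to 24.4% in domestic pig 2. The difference of 7.92 percentage points had the smallest p the design allows (exact two-sided permutation test, p = 0.1, 0.25 adjusted over 5). The first block of 11 circRNAs gave 34.7%, 38.1% and 40.9% of CADPS2 reads in wild boars, against 50.4%, 52.6% and 44.1% in domestic pigs, with the same p values. These 2 shares are not independent, as ssc_circ_6523 lies in the second block, and both were looked at after the positions were seen.

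**Figure D4:**
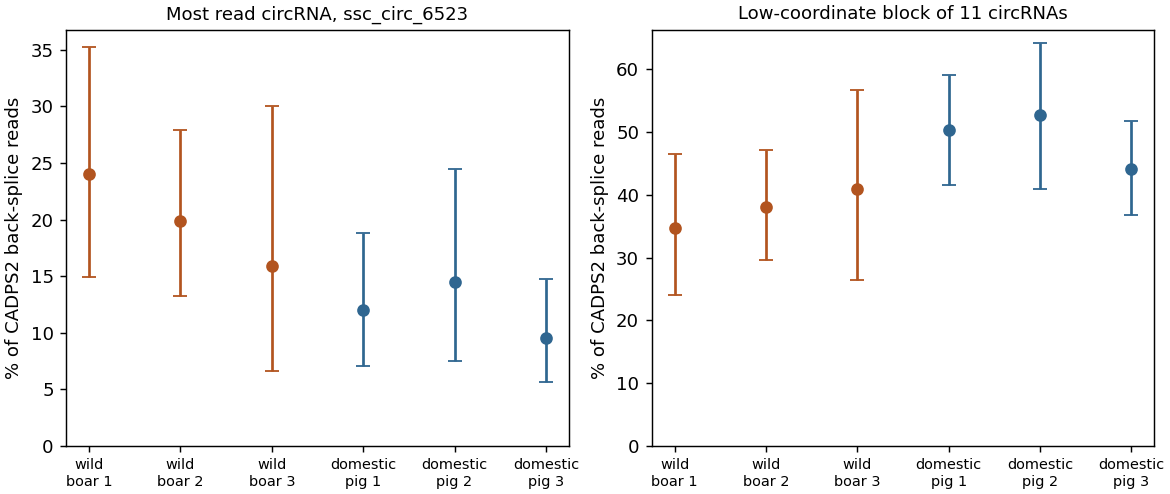
Share of CADPS2 back-splice reads (%, y axis) held by ssc_circ_6523 and by the low-coordinate block of 11 circRNAs, by library with wild boar at the left. Bars are exact 95% binomial intervals for counting error. The wild boar points lie above the domestic pig points in the first panel and below them in the second, and intervals of the groups overlap in both.

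Without ssc_circ_6523, the CADPS2 circRNA sum was 2.17, 2.08 and 1.60 TPM in wild boars, against 3.15, 2.57 and 5.26 TPM in domestic pigs. On this deposited scale the groups did not overlap. The 24.9% of host sums that did not overlap with wild boar lower were whole sums. No other host had its most read circRNA removed, so that share is not a like background for this value. After rescaling the groups overlapped, with 2.59, 2.72 and 1.74 TPM in wild boars, against 2.69, 2.13 and 3.65 TPM in domestic pigs. The first block had 1.01, 1.09 and 0.840 TPM in wild boars, against 1.69, 1.73 and 2.76 TPM in domestic pigs. Its groups met after rescaling, at 1.44 TPM in wild boar 2 against 1.43 TPM in domestic pig 2. The second block had 2.87, 2.46 and 1.58 TPM in wild boars, against 2.65, 2.06 and 4.03 TPM in domestic pigs, and overlapped.

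The next CADPS2 circRNAs by reads were ssc_circ_6503, ssc_circ_6514, ssc_circ_6511, ssc_circ_6520 and ssc_circ_6504. ssc_circ_6503 (chr18:24496802-24578477) had 0.168, 0.417 and 0.310 TPM in wild boars, against 0.525, 0.326 and 0.505 TPM in domestic pigs, from 92 reads, and the groups overlapped. ssc_circ_6520 (chr18:24717336-24782593) had 0.0568, 0.158 and 0.0697 TPM in wild boars, against 0.199, 0.198 and 0.404 TPM in domestic pigs. Its groups did not overlap, and its log2 difference was -1.16 (SE 0.59, limma adjusted p = 0.383). The other 3 had log2 differences between -1.05 and -0.72, none past the threshold.

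ssc_circ_6512 (chr18:24566863-24613823) was the circRNA of lowest p after ssc_circ_6506. It had 0, 2 and 0 reads in wild boars, against 3, 2 and 6 in domestic pigs, and a log2 difference of -1.68 (SE 0.67, limma adjusted p = 0.249). Wild boar 2 and domestic pig 2 had equal reads but stood apart in TPM, 0.0559 against 0.105. Above 0, the differences of largest size were ssc_circ_6528 at 1.12 (5, 3 and 1 reads in wild boars, against 1, 0 and 2 in domestic pigs) and ssc_circ_6524 at 0.52 (3, 18 and 3 reads in wild boars, against 1, 3 and 7 in domestic pigs). ssc_circ_6508 had 0, 3 and 0 reads in wild boars, against 5, 1 and 8 in domestic pigs, and overlapped. These read numbers are small, and no difference was detectable at this depth.

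In CADPS, ssc_circ_3772 (chr13:44019972-44066072) had 0.412, 0.357 and 0.606 TPM in wild boars, against 0.835, 0.575 and 0.742 TPM in domestic pigs. The groups overlapped by wild boar 3, and the log2 difference was -0.61 (SE 0.41, limma adjusted p = 0.512). It held 33.3%, 26.9% and 37.5% of CADPS reads in wild boars, against 35.6%, 29.3% and 23.8% in domestic pigs, with an exact two-sided permutation p of 0.6 (0.7 adjusted over 5).

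ssc_circ_3773 and ssc_circ_3776, which share the high end 44069587, were the CADPS circRNAs without overlap. ssc_circ_3773 had 0.199, 0.164 and 0.163 TPM in wild boars, against 0.258, 0.231 and 0.314 TPM in domestic pigs. ssc_circ_3776 had 0.0816, 0.228 and 0.250 TPM in wild boars, against 0.350, 0.427 and 0.387 TPM in domestic pigs. Their log2 differences of -0.50 and -0.99 missed the threshold (limma, adjusted p = 0.664 and 0.399). The log2 difference was -1.05 for ssc_circ_3775, -0.55 for ssc_circ_3774 and -0.24 for ssc_circ_3777, and the last was 0.11 after rescaling.

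Other genes of dense-core vesicles were read from a list of 83, of which 79 were found and 70 tested. On deposited TPM, 3 of 70 were called, all lower in wild boars (background 1.46% lower and 0.136% higher). After rescaling, 5 were lower and 13 higher, against 10.7% and 8.88% of all tested genes. On the rescaled scale 2 of 5 glutamatergic cortical markers were called, both higher in wild boars, SLC17A7 (0.80, adjusted p = 0.0264) and CAMK2A (0.86, adjusted p = 0.0195). The summed level of the 5 was 183, 217 and 212 TPM in wild boars, against 109, 159 and 116 TPM in domestic pigs. Of 2 endothelial markers CLDN5 was called (1.28, adjusted p = 0.00623), and their sum was 17.6, 25.0 and 26.7 TPM in wild boars, against 10.7, 8.84 and 11.7 TPM in domestic pigs. All 4 red blood cell markers were called higher on that scale, as were 1 of 4 astrocyte and 1 of 4 microglial markers. The astrocyte marker AQP4 lay below 0 (-0.62, limma adjusted p = 0.0731) and was not called. Of the 7 cerebellar markers CALB1 was called, lower in wild boars (-0.79, limma adjusted p = 0.0146). ZIC1 (0.57) and CBLN1 (0.21) of the same list lay above 0 and were not called, and the others were below 1 TPM throughout. None of the 5 neuronal or 3 GABAergic markers was called. The part of these markers in the list's calls was not tested. The list median was -0.27 on deposited TPM against -0.41 over all genes, and 0.10 after rescaling against 0.01. Without single libraries the rescaled count ran from 6 (without wild boar 2 or domestic pig 1) to 20 (without domestic pig 2), and it was 8 without wild boar 1 or wild boar 3. Of the 18, UNC13C, DOC2A, CCDC186, VGF and PCSK1N stayed called in all 6 such fits. NTS stayed called in the 3 fits in which it could be tested. It is counted among the lower calls on both scales, but it passed the filter through the domestic pigs alone and had to differ.

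Among 14 tested genes of priming and docking, the step in which CAPS proteins act, UNC13C fell. This Munc13 family member had 6.94, 3.94 and 6.71 TPM in wild boars, against 10.7, 18.8 and 25.5 TPM in domestic pigs, a log2 difference of -1.45 (SE 0.41, limma adjusted p = 0.0316) and -0.99 after rescaling (SE 0.17, adjusted p = 0.00934). The deposited call was lost when 1 of these was left out: wild boar 1 (adjusted p = 0.340), wild boar 2 (0.106), domestic pig 2 (0.581) and domestic pig 3 (0.831). On rescaled TPM, where 19.5% of all tested genes were called, its relative UNC13B also fell (-0.51). The calcium sensor DOC2A (0.78) and the Rab3 effector RPH3A (0.73) were higher. RAB3A, a small GTPase of vesicles, was the most abundant of the group and differed by -0.19 on deposited and 0.32 on rescaled TPM, neither past the threshold.

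Of 12 tested genes of fusion and calcium sensing, none was called on deposited TPM, against 1.60% of all tested genes. After rescaling the syntaxin STX1A (0.39, limma adjusted p = 0.0427) and the calcium sensor SYT7 (0.51, adjusted p = 0.0343) were higher, as were 8.88% of all. SNAP25, the partner of syntaxin in fusion, had 938, 443 and 1192 TPM in wild boars, against 787, 1065 and 1454 TPM in domestic pigs, and the groups overlapped.

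Of 16 tested genes of vesicle biogenesis and traffic, none was called on deposited TPM and 5 were after rescaling. Of all tested genes, 1.60% and 19.5% were called on these scales. CCDC186 (-0.62), which acts in vesicle maturation, and VPS54 (-0.47), of the GARP tethering complex, were lower in wild boars. EIPR1 (0.69), a partner of that complex and of its relative EARP, VPS51 (0.58), a subunit of both, and ARFIP2 (0.35) were higher. VPS52 (0.20) and VPS53 (0.58), also of GARP, lay above 0 and were not called, so VPS54 was the member below 0. Without single libraries, the calls of VPS54 and VPS51 each held in 2 of 6 fits, that of EIPR1 in 3 and that of ARFIP2 in 0. KIF1A, a motor that carries dense-core vesicles, differed by -0.06 on deposited and 0.44 on rescaled TPM (adjusted p = 0.0568).

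Among 9 tested granins and membrane proteins, VGF (0.74), PTPRN (0.67) and PTPRN2 (0.43) were higher after rescaling, against 8.88% of all tested genes. VGF, a secreted granin, had 7.58, 4.81 and 8.85 TPM in wild boars, against 3.55, 6.81 and 6.47 TPM in domestic pigs on the deposited scale, where it overlapped. In prohormone processing PCSK1N, which encodes the inhibitor proSAAS, was 130, 103 and 154 TPM in wild boars, against 56.0, 79.0 and 85.7 TPM in domestic pigs. Its log2 difference was 0.80 on deposited (limma adjusted p = 0.290) and 1.31 on rescaled TPM (SE 0.15, adjusted p = 0.00351). It was the single called member of 7, where 19.5% of all tested genes were called on rescaled TPM.

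Of 12 tested cargo genes, NTS (neurotensin) and PENK (proenkephalin) were lower in wild boars on deposited TPM, against 1.46% of all tested genes. NTS had 0.370, 0.468 and 0.284 TPM in wild boars, against 3.88, 7.05 and 16.5 TPM in domestic pigs, a log2 difference of -2.69 (SE 0.33, limma adjusted p = 5.35e-13). It passed the filter through the domestic pigs alone, so it had to differ, and it could not be tested without any 1 of them. PENK had 1.45, 0.975 and 3.70 TPM in wild boars, against 2.17, 4.09 and 21.2 TPM in domestic pigs. Its difference of -1.33 (adjusted p = 0.0188) was -0.51 without domestic pig 3 (adjusted p = 0.831), the library with the highest striatal marker sum, and -0.96 after rescaling (adjusted p = 0.216). The part of that marker sum in the result was not tested. The call was also lost without wild boar 1 (adjusted p = 0.585), wild boar 2 (0.195) or domestic pig 2 (0.0670). CCK (0.81, limma adjusted p = 0.0392) and NPY (0.53, adjusted p = 0.0480) were higher after rescaling, as were 8.88% of all tested genes. Each of these calls held in 1 of the 6 fits without a single library. Of the other genes that the naming rule took, 14 passed the threshold on neither scale: RAB3C, SYT1, SYT4, RAB2A, ARFIP1, CHGB, SCG2, SCG3, SCG5, PCSK1, CPD, CPE, SST and TAC1. Their deposited log2 differences ran from -1.11 for TAC1 to -0.12 for SST. BDNF, a neurotrophin whose release CADPS2 promotes in mouse, was not called on either scale.

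**Figure D5:**
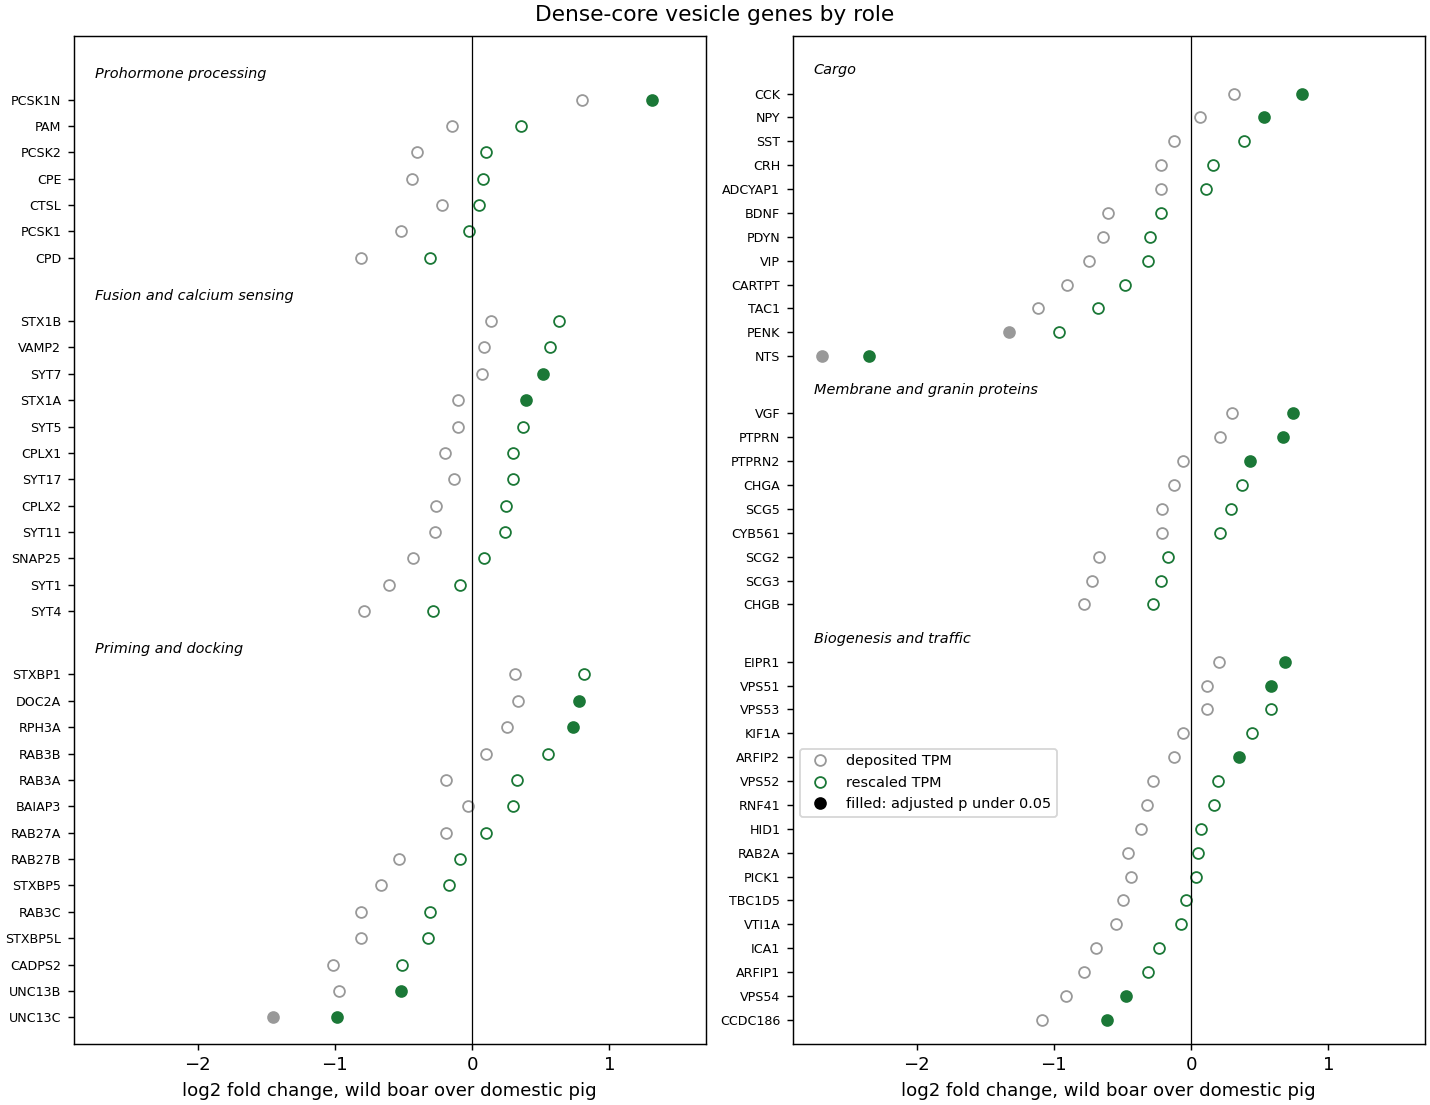
Log2 fold change of the 70 tested dense-core vesicle genes, wild boar over domestic pig (x axis), by role. Grey marks deposited TPM, green marks rescaled TPM, and filled points have an adjusted p under 0.05. On deposited TPM 3 points are filled, all below 0, and on rescaled TPM 18 are, with 13 above 0 and 5 below.

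Of the 83 genes, 22 hosted 111 circRNAs, and 6 priming genes held 73 of them: CADPS2 with 29, STXBP5L with 13, CADPS with 10, and UNC13B, UNC13C and STXBP5 with 7 each. CADPS2 was chosen for its number of circRNAs, so the total of the priming genes rests in part on that choice. Without the pair, 4 priming genes held 34 of 72 circRNAs, and 7 genes of biogenesis and traffic held 21. The 13 cargo genes hosted 0. STXBP5L, the relative of the syntaxin-binding tomosyn STXBP5, had 1.51 ± 0.445 TPM of circRNA in wild boars and 1.86 ± 0.788 TPM in domestic pigs (SD, n = 3 each). No host sum of the list passed the threshold, which 4.73% of all 3193 tested hosts passed on deposited TPM. The lowest adjusted p, 0.0507 (limma), belonged to CCDC186, whose single circRNA had 0 reads in wild boars and 8 in domestic pigs. It passed the filter through the domestic pigs alone.

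The genes whose rescaled level was most like that of CADPS2 over the 6 libraries were GRIK1, which encodes a kainate receptor subunit (Pearson r = 0.987), KIF5A, a kinesin (0.981), FGF9, a growth factor (0.980), GIGYF2 (0.978) and NOP56 (0.978). They were picked out of 10511 genes with a symbol, of which 130 (1.24%) had an r above 0.9. With 6 libraries these values are a description of likeness.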

How the data were processed

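Total RNA was extracted with Trizol, depleted of ribosomal RNA and made into stranded libraries, per the labels' protocols. The authors deposited TPM tables of protein-coding genes and of circRNAs with 1 column per library. STAR 2.6.0c and BWA 0.7.17 are named in the submitters' processing notes. The build, annotation and circRNA caller are not given in the sources used here.

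Back-splice reads and spliced lengths were recovered from the circRNA TPM, which is reads over length scaled by a library constant. Reads of all 11375 circRNAs were whole within 1e-05, taking the smallest solution with a whole length and at least 3 reads in 1 library. Lengths were anchored on circRNAs with a span under 250 bases, of which 10 of 12 agreed. For 3 of the 39 circRNAs the solution had to be raised, by up to 4 times. On simulated data 38 of these 39 were recovered exactly. Starts were raised by 1 to count from 1, and hosts were assigned by position in RefSeq Sscrofa11.1. In the gene table, 14821 of 21280 identifiers matched a symbol.

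Features were tested in R 4.3.3 with limma 3.58.1 (trend on mean expression, two-sided), with Benjamini-Hochberg adjustment over all features and a threshold of 0.05. Genes that reached 1 TPM in 3 or more libraries were tested on log2(TPM + 1). CircRNAs and host sums above 0 in at least 3 libraries were tested on log2(TPM + 0.045). Fold changes on these scales understate changes of low values. Tests were checked on simulated data. Alternatives were median-ratio rescaling, no filter, no trend, other pseudocounts, a replicate block and leaving out each library. Named circRNAs were the 6 of most reads and the 4 of lowest p per host. Named dense-core genes were, per role, the 3 of lowest p and the 2 most abundant, with those called after rescaling added once values were seen. ssc_circ_6524 and ssc_circ_6528, BDNF, STXBP5L, and CCDC186 as a circRNA host, were also named after their values were seen. Members and lists were chosen with earlier results of these data known.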

Additional observations from a re-analysis of the deposited data

How the results depend on the processing

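The CADPS and CADPS2 circRNAs past the threshold stayed at 0 under each alternative run, and the CADPS2 gene level, the CADPS circRNA sum and the CADPS2 circRNA to gene ratio kept their direction and their side of the threshold. The CADPS2 circRNA sum changed sign on rescaled TPM (0.021). Leaving out 1 library gave log2 differences of -1.21 to -0.77 for the CADPS2 gene, -0.95 to -0.63 for the CADPS sum, -0.75 to -0.33 for the CADPS2 sum and 0.13 to 0.68 for the ratio.

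Over all genes, 188 calls became 2295 on rescaled TPM, 6 with no filter, 285 with no trend and 26 to 426 without 1 library. The 3 dense-core calls became 18 on rescaled TPM, 0 with no filter and 0 to 4 without 1 library, and the 18 ran from 6 to 20 without 1 library, an alternative chosen after seeing the data. Over all circRNAs, 13 calls became 2 on rescaled TPM, 6 with no filter, 1 with no trend, 29 with a pseudocount of 0.2 and 1 to 25 without 1 library. The cause was not tested.

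With the replicate block, 70 genes, 1 dense-core gene and 21 circRNAs were called, and CADPS2 stayed at -1.01 (limma adjusted p = 0.512). Same-numbered libraries correlated at 0.112, -0.074 and -0.163 over rescaled genes, so the numbers are not taken to pair the animals.

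Signs turned on rescaled TPM for ssc_circ_3777 (0.11), ssc_circ_6523 (0.55), CPE (0.077), KIF1A (0.44), RAB2A (0.049), RAB3A (0.32), SCG5 (0.29), SNAP25 (0.083) and SST (0.38). They turned without wild boar 1 for ssc_circ_3777 (0.0065), without wild boar 2 for KIF1A (0.20), RAB3A (0.0069), SCG5 (0.11) and SST (0.18), without wild boar 3 for ssc_circ_6523 (0.28), without domestic pig 2 for KIF1A (0.19), and without domestic pig 3 for ssc_circ_6523 (0.08), KIF1A (0.04) and SST (0.05). None of these was past the threshold. Over all 6 such fits the lowest values were -0.56 for ssc_circ_3777, -0.24 for ssc_circ_6523, -0.41 for KIF1A, -0.46 for RAB3A, -0.45 for SCG5 and -0.28 for SST. The CADPS gene level, the CADPS circRNA to gene ratio and the CADPS2 to CADPS gene ratio were planned and not run, as no identifier was paired with CADPS. Low read numbers limit the circRNA tests, and TPM keeps no depth for genes.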
